A study of Mus musculus with 6 samples.

Results

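The genes described here are 49 genes of mitosis and the G2/M transition, chosen by name as a fixed set of cyclins, mitotic kinases, kinetochore and checkpoint proteins, spindle motors, cytokinesis factors and chromosome proteins. Each of the 49 was found in a single row of the table of 53618 named genes, and all 49 were among the 12298 genes tested, with normalized counts from 297 to 18788 in any library. The RNA came from GFP+Lin-c-Kit+ splenocytes, the leukemia cells sorted from the spleens of recipient mice. AE9a, a truncated AML1-ETO fusion protein, had been delivered by retrovirus together with GFP into fetal liver cells of the genotype Usp18+/f UBCER-Cre, and the resulting leukemia was transplanted again into sublethally irradiated mice. Oil was given to 3 sick mice and tamoxifen dissolved in corn oil to 3 others, and cells were taken 3 days after the first injection, with 1 library per mouse. The floxed Usp18 allele and the Cre, which this transgene expresses in all tissues, were present in both groups, and no tamoxifen-treated cells without the Cre were analysed here, so tamoxifen, Cre activity and loss of a Usp18 allele cannot be told apart. The question of the comparison was how the leukemia cells' transcripts differed once a Usp18 allele had been targeted.

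Mitosis is driven by CDK1, which is activated by B-type and A-type cyclins at the end of G2. Aurora and Polo kinases then build the spindle, the kinetochore and its checkpoint hold the chromosomes until all are attached, and CDC20 with the anaphase-promoting complex (APC/C) ends mitosis by marking securin and the cyclins for destruction. Most of these genes are transcribed late in the cell cycle, through the MuvB core with B-MYB and FOXM1, and are kept silent in resting cells by the DREAM complex, which contacts a promoter element called the cell cycle genes homology region (CHR). In a population of dividing cells their transcripts are commonly read as a sign of how many cells are in G2 and M. In bulk RNA, fewer cells of a type and less RNA per cell cannot be told apart.

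Usp18, the targeted gene, had normalized counts of 217, 214 and 176 in the libraries labelled oil and of 477, 329 and 284 in those labelled tamoxifen, so its total was higher where deletion was intended. The table gives 1 total per gene and does not separate the floxed exons, so this does not check the deletion, and every direction below is between libraries as labelled. The library labelled tamoxifen 1 stood apart from the others: its median correlation with the other 5 was 0.913, against 0.981 to 0.990, and mitochondrial transcripts took 0.00923% of its reads, against 1.01% to 1.56%. Reads in named genes ranged from 19164795 in tamoxifen 1 to 23770537 in oil 1. Of the markers expected of the sorted cells, Kit (4687 to 10976), Myb and Spi1 were abundant, while Ptprc, which encodes the pan-leukocyte antigen CD45, did not exceed 8.08 in any library, nor Mpo 20.2, so these defining markers of leukocytes and myeloid progenitors were close to absent.

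The promoters of the members share sequence features that the choice of genes did not use. The table of RefSeq promoters (GRCm38.p6, from 250 bases before to 50 bases after each start) held 42 of the 49 members, in 46 windows. The CHR, searched as TTTGAA on both strands, was found in 69.6% of the members' windows against 17.9% of all 32851 windows of the same length, and its variant TTTAAA in 23.9% against 13.2%. The CCAAT box, searched as CCAAT on both strands, which the NF-Y factor binds, was found in 84.8% against 37.4%, and at least 2 of them in 54.3% against 11.7%. TTTAAA reads the same on both strands, and no match of 1 motif can be a match of another. At least 1 of the CHR forms lay in the windows of 34 member genes and neither in those of 8, which were Bub1, Cdc25b, Cks2, Mad2l1, Nek2, Nuf2, Nusap1 and Psrc1. A match describes the letters of a window and does not show that a factor binds there.

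The promoters of 6 members that lay below every oil library in tamoxifen 2 and tamoxifen 3, and of the 2 members that lay above every oil library in tamoxifen 2, Gtse1 and Psrc1, are shown from 180 bases before to 30 bases after the start, read 5′ to 3′ on the gene's strand, with CHR, CHR variant and CCAAT matches on either strand in capitals. They lie on GRCm38.p6 at chr10:69352883-69353092 (minus strand, Cdk1), chr9:70421525-70421734 (minus strand, Ccnb2), chr7:122159255-122159464 (plus strand, Plk1), chr4:118437314-118437523 (minus strand, Cdc20), chr5:30666706-30666915 (plus strand, Cenpa), chr7:80294271-80294480 (plus strand, Prc1), chr15:85859527-85859736 (plus strand, Gtse1) and chr3:108383624-108383833 (plus strand, Psrc1). Prc1, Gtse1 and Psrc1 each have 2 windows, of which the first is shown. The 6 lower members are examples not chosen by a rule. Cdc25b, Nek2, Nuf2 and Nusap1, which have neither CHR form, also lay below every oil library in tamoxifen 2 and tamoxifen 3.
Cdk1: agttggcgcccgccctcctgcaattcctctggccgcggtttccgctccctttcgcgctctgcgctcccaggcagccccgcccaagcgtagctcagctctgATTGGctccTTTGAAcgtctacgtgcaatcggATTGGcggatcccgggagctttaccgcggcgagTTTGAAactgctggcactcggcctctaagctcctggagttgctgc
Ccnb2: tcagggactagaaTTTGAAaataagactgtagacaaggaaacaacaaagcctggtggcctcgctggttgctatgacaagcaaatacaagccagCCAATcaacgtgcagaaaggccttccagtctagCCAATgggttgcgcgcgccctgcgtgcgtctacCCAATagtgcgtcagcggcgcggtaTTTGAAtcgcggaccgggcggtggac
Plk1: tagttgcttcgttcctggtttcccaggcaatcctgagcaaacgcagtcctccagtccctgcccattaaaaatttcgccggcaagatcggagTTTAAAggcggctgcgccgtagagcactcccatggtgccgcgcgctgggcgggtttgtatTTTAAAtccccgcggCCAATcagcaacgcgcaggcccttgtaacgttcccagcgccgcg
Cdc20: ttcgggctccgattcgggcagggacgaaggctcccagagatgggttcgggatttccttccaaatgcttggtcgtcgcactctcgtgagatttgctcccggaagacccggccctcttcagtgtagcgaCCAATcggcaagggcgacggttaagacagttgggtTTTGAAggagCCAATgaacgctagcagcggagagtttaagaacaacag
Cenpa: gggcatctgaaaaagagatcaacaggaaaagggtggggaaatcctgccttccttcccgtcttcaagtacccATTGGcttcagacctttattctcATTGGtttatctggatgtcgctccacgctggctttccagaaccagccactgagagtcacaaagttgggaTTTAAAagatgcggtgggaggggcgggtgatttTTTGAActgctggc
Prc1: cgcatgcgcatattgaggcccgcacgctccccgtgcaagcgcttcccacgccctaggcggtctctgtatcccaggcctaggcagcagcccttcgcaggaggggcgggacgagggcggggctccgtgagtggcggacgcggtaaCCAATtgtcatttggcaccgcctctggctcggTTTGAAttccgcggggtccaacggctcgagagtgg
Gtse1: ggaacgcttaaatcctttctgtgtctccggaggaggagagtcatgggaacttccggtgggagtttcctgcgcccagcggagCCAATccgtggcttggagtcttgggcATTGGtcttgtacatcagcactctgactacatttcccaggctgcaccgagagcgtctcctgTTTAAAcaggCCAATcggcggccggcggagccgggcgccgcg
Psrc1: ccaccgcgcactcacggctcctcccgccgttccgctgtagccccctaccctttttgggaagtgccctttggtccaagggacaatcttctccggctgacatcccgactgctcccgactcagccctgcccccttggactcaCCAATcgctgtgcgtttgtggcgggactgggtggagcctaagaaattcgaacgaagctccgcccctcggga

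The Cdk1 window held 2 CHR and 2 CCAAT matches, that of Ccnb2 held 2 CHR and 3 CCAAT matches, and those of Cdc20, Cenpa and Prc1 held a CHR beside 2, 2 and 1 CCAAT matches. The Cenpa window also held 1 variant match. That of Plk1 held 2 variant matches and 1 CCAAT match, and its CHR match counted above lies in the longer window, outside the stretch shown. Gtse1 carried 1 variant match with 3 CCAAT matches, and Psrc1 had a CCAAT match without either CHR form. In tamoxifen 3 the members with either form had a median log2 deviation from the mean of the oil libraries of -0.56 (34 genes, from -0.77 to 0.02), and the 8 members with neither form one of -0.48 (from -0.81 to 0.25), so the ranges overlapped almost fully.

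In the libraries labelled tamoxifen, mitotic transcripts were lower than in oil for most members, and the 3 mice differed from each other. The 49 members together took 0.775%, 0.818% and 0.828% of reads in oil 1, 2 and 3, and 0.627%, 0.739% and 0.598% in tamoxifen 1, 2 and 3. Every tamoxifen-labelled library was therefore below every oil library by this share. On the log2(value + 1) scale, the members' median deviation from the oil mean was -0.37 in tamoxifen 1, -0.14 in tamoxifen 2 and -0.53 in tamoxifen 3, while that of all tested genes was -0.04 in tamoxifen 3 and 0.00 in the others. After a correction for GC content, described below, the members' median in tamoxifen 1 was positive, at 0.11. At the median, a member in tamoxifen 3 was at 0.690 times its oil level, and in tamoxifen 2 at 0.906 times. The SD of the deviations over members was 0.13 in tamoxifen 2, 0.19 in tamoxifen 3 and 0.84 in tamoxifen 1, each below that over all tested genes (0.34, 0.47 and 1.23). In tamoxifen 1 the members ran from -2.20 for Cks2 to 1.39 for Psrc1.

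**Figure D1:**
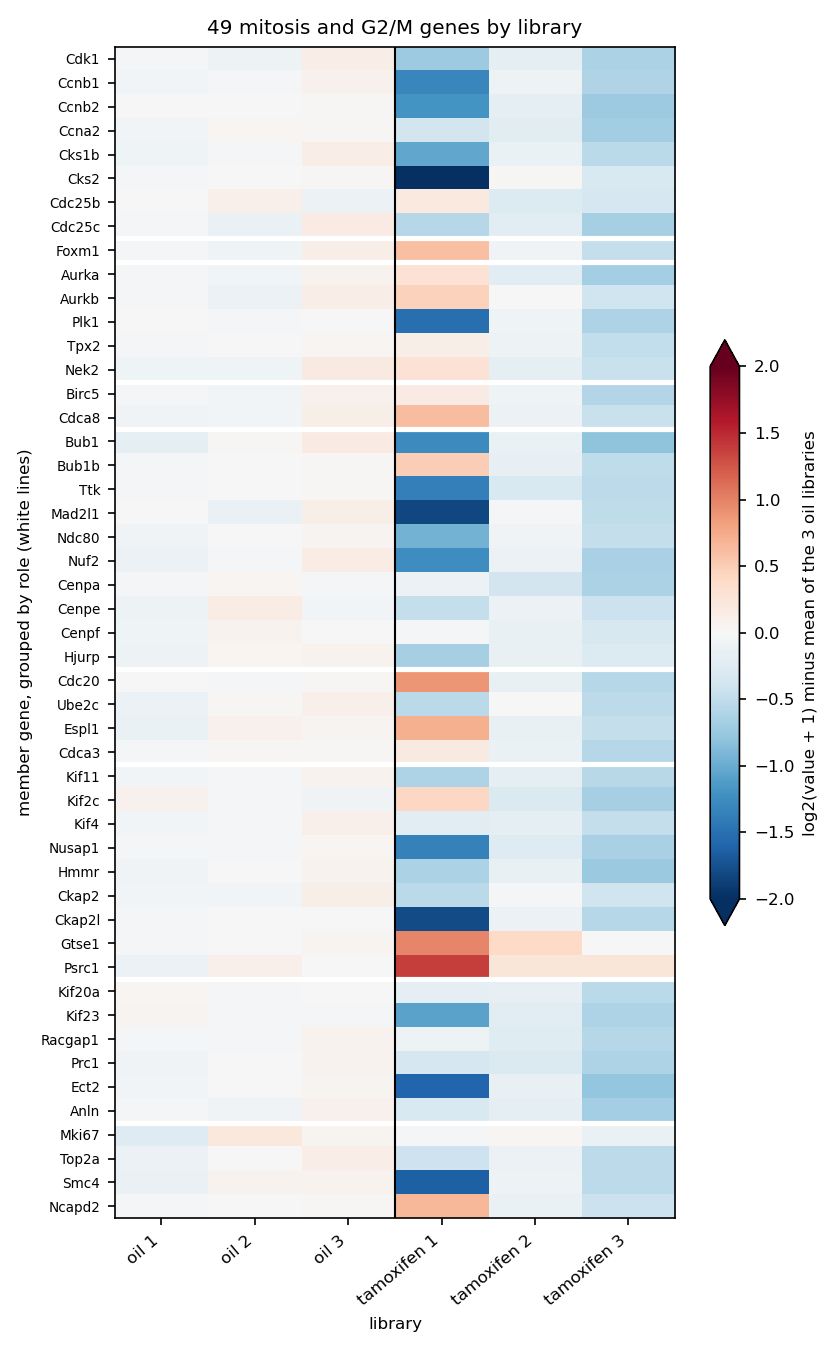
Heat map of the 49 members (rows, grouped by role between white lines) in the 6 libraries (columns), coloured by log2(value + 1) minus the mean of the 3 oil libraries, blue for lower and red for higher, with colours cut at 2. Tamoxifen 3 is blue in nearly every row and tamoxifen 2 faintly so (medians -0.53 and -0.14), whereas tamoxifen 1 mixes deep blue and red.

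Counted gene by gene, 46 of 49 members lay below every oil library in tamoxifen 3, against 37.9% of all tested genes, and 1 lay above, against 27.2%. In tamoxifen 2, 37 lay below, against 26.7%, and 2 above, against 22.9%. In tamoxifen 1, 31 lay below, against 44.8%, and 16 above, against 44.5%. Tamoxifen 3 was below tamoxifen 2 by more than 1 normalized count for 48 of the 49 members, all but Psrc1, where 55.5% of all tested genes had that order. Since the members are abundant, the same was counted over the 7193 tested genes within the members' range of mean level, of which 44.0% lay below every oil library in tamoxifen 3 and 63.2% were lower in tamoxifen 3 than in tamoxifen 2 by that margin.

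With all 6 libraries, no member passed the limma test at an adjusted p of 0.05, and neither did any of the 12298 genes (0% called). The smallest adjusted p of a member was 0.666. At an unadjusted p under 0.05, 12 members were lower and 0 higher, against 1.24% of all tested genes lower and 3.23% higher. The median log2 fold change of the members was -0.35, against -0.02 over all genes tested, and 41 of 49 were negative. All 3 tamoxifen-labelled values lay below all 3 oil values for 24 members, against 9.69% of genes tested, and above them for 1 member, Psrc1, against 7.86%. The exact permutation test of 3 against 3 libraries cannot give a p below 0.1, and that was its value for each of these 25 members. EdgeR and DESeq2 on recovered reads also called 0 members, against 0% and 0.569% of all genes. At an unadjusted p under 0.05 they had 9 and 11 members, against 4.85% and 5.64% of all genes in either direction.

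Leaving out tamoxifen 1 raised the number of members at an unadjusted p under 0.05 from 12 to 41 without moving the median, which became -0.34. Of these, 40 were lower, against 6.06% of all genes tested, and 1 was higher, Psrc1, against 6.04%. Within the members' range of mean level the share that was lower came to 7.03%. No member passed the adjusted limma threshold, which 0.333% of all genes did. The smallest adjusted p was 0.0737, for Cenpa. By DESeq2 on recovered reads in the same 5 libraries, 6 members fell at an adjusted p under 0.05, against 0.41% of genes, and these were Cenpa, Kif2c, Nusap1, Racgap1, Prc1 and Ccna2. By edgeR in those libraries 0 members passed, with 40 at an unadjusted p under 0.05, against 12.0% of all genes in either direction.

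The other libraries mattered as well. Without tamoxifen 3, 0 members were lower at an unadjusted p under 0.05, against 1.12% of all genes, and 1 was higher, Gtse1, against 2.2%, with a median log2 fold change of -0.27. Without tamoxifen 2, 26 members were lower, against 3.72%, with a median of -0.47. Leaving out oil 1, oil 2 or oil 3 left 0 members at an unadjusted p under 0.05, against 1.83% to 2.63% of all genes in either direction, with medians of -0.33 to -0.39. With only tamoxifen 2 against the 3 oil libraries the median was -0.14, 7 members were lower at that p, against 2.23% of all genes, and 1 was higher, against 2.91%, a fit in which the lone library is assumed to vary as the oil libraries do. A limma fit that gave each library a weight from its own scatter put 0.0377 on tamoxifen 1, 0.956 on tamoxifen 2 and 3.37 on tamoxifen 3. The tamoxifen side of that fit therefore rested mostly on tamoxifen 3, where the members were lowest at the median. There 35 members were lower at an adjusted p under 0.05, against 2.54% of genes, with a median of -0.45.

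**Figure D2:**
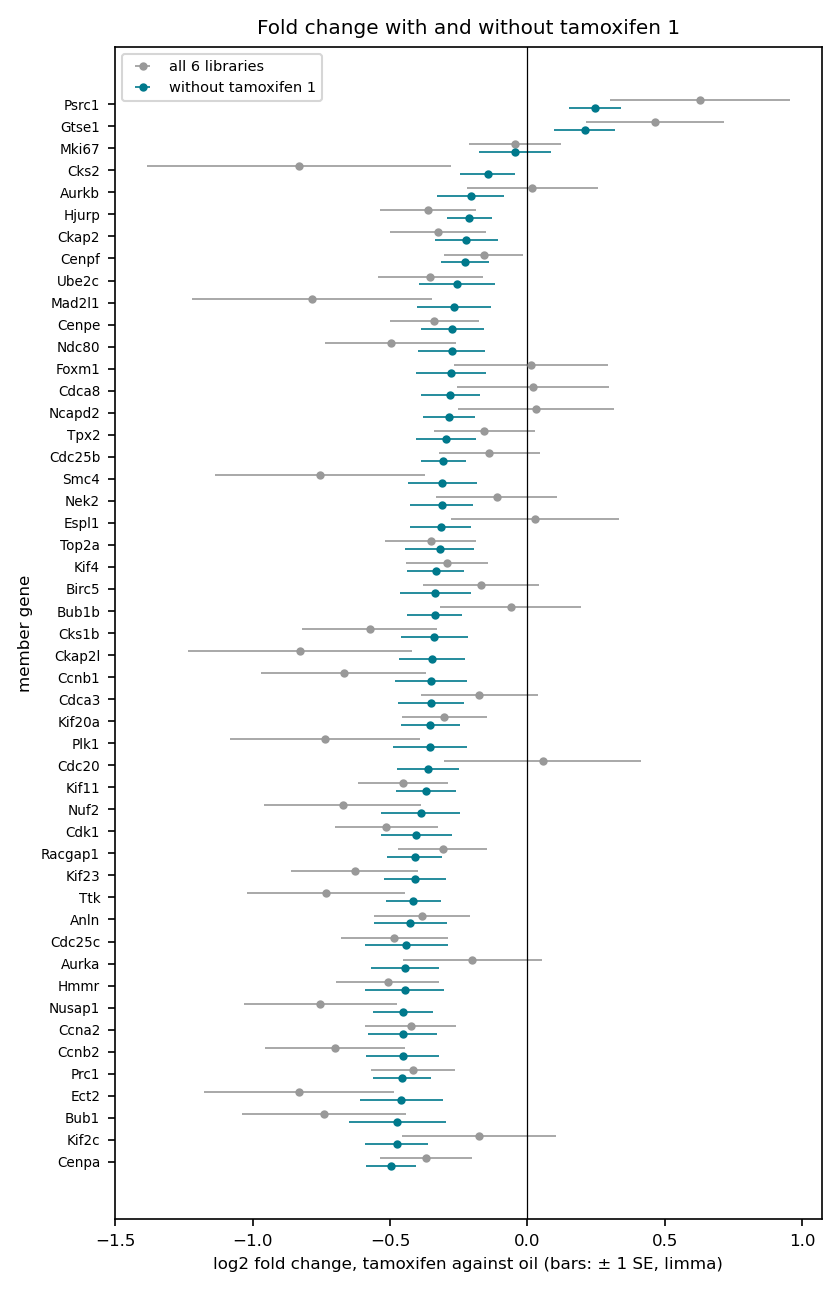
Log2 fold change (horizontal axis, libraries labelled tamoxifen against oil) of each member with ± 1 SE from limma, with all 6 libraries in grey and without tamoxifen 1 in teal. Without tamoxifen 1 the members lie in a narrow band around the median of -0.34 with small errors, with Gtse1 and Psrc1 to the right of 0 and Mki67 close to it.

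CDK1 and its cyclins carry the cell into mitosis. Cdk1 itself had normalized counts of 2451, 2317 and 2732 in oil and 1503, 2207 and 1609 in tamoxifen 1, 2 and 3. The groups did not overlap, and the log2 fold change was -0.51 ± 0.19 (SE) with all libraries and -0.40 ± 0.13 without tamoxifen 1 (limma, adjusted p = 0.666 and 0.264). Ccnb1, which encodes cyclin B1, the main partner of CDK1, had 4232, 4271 and 4659 in oil against 1774, 4094 and 2884. Its tamoxifen 2 value was just below the lowest oil value and its tamoxifen 1 value was the lowest by far. Ccnb2, the second B-type cyclin, had 3443, 3422 and 3502 in oil against 1513, 3032 and 2097, again with no overlap, and a log2 fold change of -0.70 ± 0.26, or -0.45 ± 0.13 without tamoxifen 1. Ccna2, the cyclin that acts in both S phase and G2, had 4687, 5025 and 4956 in oil against 3784, 4226 and 3013. It was the member of this group that passed DESeq2 without tamoxifen 1 (adjusted p = 0.0394). Near-identical pseudogenes of the B cyclins, Ccnb1-ps and Ccnb2-ps, had mean counts of 6.80 and 64.1.

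The CDK1 partners showed more scatter. Cks2, a small subunit that docks on CDK1, had 3935, 3992 and 4083 in oil and 868, 4060.4 and 3227 in the tamoxifen-labelled libraries. Tamoxifen 2 lay within the oil range, tamoxifen 3 below it, and tamoxifen 1 was the farthest below of any member (log2 deviation -2.20). Its relative Cks1b had values of 2307 to 2685 in oil and of 1191, 2243 and 1684. The phosphatases that remove inhibitory phosphate from CDK1 differed in tamoxifen 1: Cdc25c was lowest in tamoxifen 3 (297) and below oil (429 to 526) in all 3, whereas Cdc25b was above oil in tamoxifen 1 (7286, against 5879 to 6820) and below it in the other two. Of the 8 genes of this group, 4 were lower at an unadjusted p under 0.05 with all libraries and 7 without tamoxifen 1, the exception being Cks2. The median log2 fold change was -0.54 and -0.38. Cdc25b overlaps Spef1 on the opposite strand, which had 12.1% of its level, and Ccna2 overlaps Exosc9, with 16.3%. Whether the counting used strand is not given in the sources used here.

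**Figure D3:**
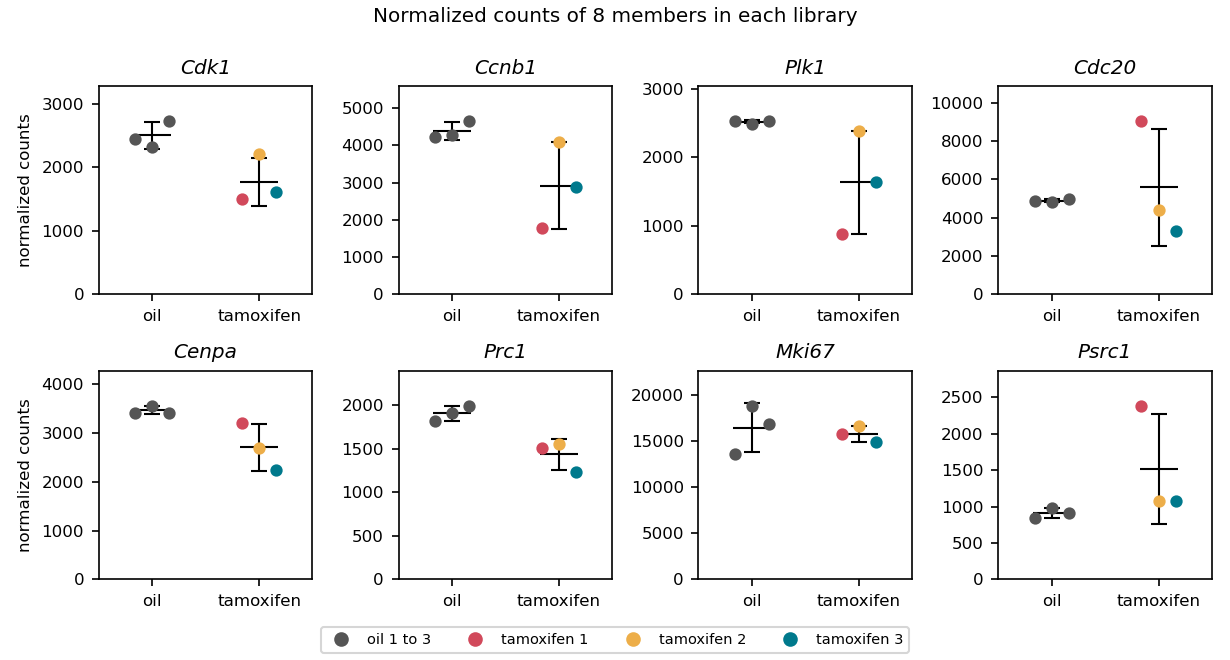
Normalized counts (vertical axes, from 0) of 8 members in each library, with a horizontal mark for the group mean and a bar of ± 1 SD (3 libraries per group). Cdk1, Ccnb1, Plk1, Cenpa and Prc1 lie below oil in all 3 tamoxifen-labelled libraries, Cdc20 is far above oil in tamoxifen 1 (9056) and below it in the other two, Mki67 overlaps oil throughout and Psrc1 lies above.

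Foxm1, the transcription factor that with B-MYB activates this program, had 1307, 1263 and 1479 in oil and 2035, 1280.0 and 964 in tamoxifen 1, 2 and 3. Tamoxifen 1 was above, tamoxifen 2 within and tamoxifen 3 below the oil range, so the log2 fold change of 0.01 ± 0.28 with all libraries was -0.28 ± 0.13 without tamoxifen 1.

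The mitotic kinases took opposite directions in tamoxifen 1 and the same one in tamoxifen 3. Plk1, the Polo-like kinase that promotes entry, spindle assembly and cytokinesis, had 2531, 2488 and 2530.3 in oil (mean 2517 ± 24.6, SD, n = 3) and 887, 2375 and 1633 in the tamoxifen-labelled libraries (1632 ± 744, SD, n = 3). All 3 were below oil, tamoxifen 1 most. Aurka, the kinase of the spindle poles, had 1710.2, 1665 and 1825 in oil against 2118, 1489 and 1087, above oil in tamoxifen 1 and below it in the others. Aurkb, the kinase of the chromosomal passenger complex, had 2187, 2053 and 2443 in oil against 3071, 2211 and 1679, and only tamoxifen 3 lay below oil. Tpx2, which activates Aurora A on microtubules, had 4619, 4638 and 4809 in oil against 5088, 4385 and 3330.2. Nek2, a kinase of centrosome separation, took the same order (2194, 1590.2 and 1319.5, against 1687 to 2036 in oil). None of these 5 was lower at an unadjusted p under 0.05 with all libraries, and 4 were without tamoxifen 1, all but Aurkb. Their median log2 fold change was -0.16 with all libraries and -0.31 without tamoxifen 1.

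Both further members of the chromosomal passenger complex, which corrects wrong attachments and guides cytokinesis, repeated this order. Birc5, which encodes survivin, had 2007, 1987 and 2189 in oil and 2306, 1933 and 1379 in tamoxifen 1, 2 and 3. Cdca8, encoding borealin, had 2525 to 2886 in oil and 4069, 2431 and 1955. Tamoxifen 1 was thus above and the other two below oil for both genes. A neighbour on the opposite strand of Cdca8, 9930104L06Rik, had 8.75% of its level.

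Of the 10 checkpoint and kinetochore genes, all 10 were below every oil library in tamoxifen 3 and 8 in each of tamoxifen 1 and tamoxifen 2. Bub1, a checkpoint kinase, had 1325, 1538 and 1689.9 in oil and 622, 1370.0 and 863. Tamoxifen 2 lay within the oil range and the other two far below. Bub1b, encoding the checkpoint protein BUBR1, had 3571, 3647 and 3700.2 in oil against 5112, 3246 and 2555, so that the group means were close (3639 ± 64.7 and 3638 ± 1323, SD, n = 3) while every tamoxifen-labelled library lay outside the oil range. Mad2l1, which encodes MAD2, the inhibitor of CDC20, had 2462, 2228 and 2662 in oil against 694, 2391 and 1723. The checkpoint kinase gene Ttk had 864 to 893 in oil and 339, 710.2 and 607, with no overlap.

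Among the kinetochore genes proper, Ndc80, part of the complex that grips microtubules, had 844, 889 and 916 in oil against 460.1, 838 and 634, and its partner Nuf2 had 2407 to 2891 against 1102, 2386 and 1652. Both were below oil in all 3 libraries. Cenpa, the histone H3 variant that marks the centromere (chr5:30666777-30674830 in GENCODE vM21), had 3420.5, 3562 and 3417 in oil against 3198, 2688 and 2244. It was the member with the lowest fold change without tamoxifen 1, -0.50 ± 0.09 (limma adjusted p = 0.0737, DESeq2 adjusted p = 0.000407), and -0.37 ± 0.17 with all libraries. Hjurp, the chaperone that loads it, had 6929 to 7766 in oil and 4674, 6703 and 6133. Cenpe, a kinetochore motor, had 2477, 2955 and 2570.2 against 1918, 2464 and 1965, with no overlap. With the GC correction described below, its all-library log2 fold change went from -0.34 to -0.0056 and its tamoxifen 1 deviation from -0.47 to 0.53. Cenpf, a large kinetochore protein of G2 and M, had 2528, 2827 and 2709 against 2642, 2432 and 2162, and overlapped oil in tamoxifen 1. Without tamoxifen 1, 9 of the 10 were lower at an unadjusted p under 0.05, all but Mad2l1, against 2 with all libraries.

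Genes of anaphase onset differed in direction between libraries. Cdc20, the APC/C activator, had 4895, 4805 and 4981 in oil and 9056, 4408 and 3294 in tamoxifen 1, 2 and 3. It was highest in tamoxifen 1 and below oil in the other two, and its log2 fold change went from 0.06 ± 0.36 with all libraries to -0.36 ± 0.11 without tamoxifen 1 and 0.37 ± 0.32 without tamoxifen 3. The gene overlaps Elovl1 on the opposite strand, whose level was 58.1% of its own. Espl1, encoding separase, which cleaves cohesin, had 3269, 3822 and 3737 in oil against 5902, 3242 and 2583. Cdca3, a mitotic entry factor, had 2008 to 2103 in oil and 2344, 1891 and 1386, again high in tamoxifen 1 and low in the others. Ube2c, the E2 enzyme of the APC/C, differed, with 4453, 4863 and 5132 in oil and 3291, 4842 and 3347, so that tamoxifen 1 and tamoxifen 3 were low and tamoxifen 2 was within the oil range.

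Kinesins and spindle proteins included 2 of the 6 genes called by DESeq2 without tamoxifen 1, and the 2 members whose fold change was then positive. Kif11, the motor that pushes spindle poles apart, had 5443, 5564 and 5947 in oil and 3677, 4996 and 3832 in the tamoxifen-labelled libraries. The groups did not overlap, and the log2 fold change was -0.45 ± 0.16, or -0.37 ± 0.11 without tamoxifen 1. With the GC correction described below it was -0.075 with all libraries, and the deviation in tamoxifen 1 went from -0.62 to 0.52. Kif2c, a kinesin that takes microtubules apart at centromeres, had 1612, 1506 and 1456 in oil against 2041, 1246 and 962, and fell by DESeq2 once tamoxifen 1 was left out (adjusted p = 0.0246). Kif4, a motor of chromosome arms, had 1484 to 1658 in oil and 1339, 1349.8 and 1115, and its neighbour Pdzd11 on the opposite strand had 23.2% of its level. Nusap1, a spindle-associated protein, had 3206, 3234 and 3372 in oil against 1278, 2737 and 2086, below oil in all 3, and fell by DESeq2 without tamoxifen 1 (adjusted p = 0.017). It overlaps Oip5 on the opposite strand, with 11.8% of its level.

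Hmmr, a spindle-pole protein, had 2764, 2909 and 3034 in oil against 1874, 2605 and 1737, with no overlap. Ckap2l, also of the spindle, had 1762, 1791 and 1795 in oil against 515, 1635 and 1202. Ckap2 had 1558 to 1751 in oil and 1119.6, 1572 and 1227. Gtse1, a microtubule-binding protein of G2 and M that is also known as a p53-inducible gene, had 1902, 1945 and 2033 in oil and 3869, 2586 and 1979.7. Tamoxifen 1 and tamoxifen 2 lay above oil and tamoxifen 3 within it. Psrc1, a spindle protein likewise known to respond to p53, had 839, 979 and 916 in oil and 2385, 1079 and 1079, above oil in all 3 libraries (log2 fold change 0.63 ± 0.33, or 0.25 ± 0.09 without tamoxifen 1). Neither passed the adjusted test (limma adjusted p = 0.666 for both with all libraries).

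All 6 cytokinesis genes were below every oil library in all 3 tamoxifen-labelled libraries. Prc1, which bundles the microtubules of the central spindle, had 1821, 1905 and 1994 in oil and 1509, 1559 and 1236. This was among the most even differences of the set, with a log2 fold change of -0.42 ± 0.15, or -0.46 ± 0.11 without tamoxifen 1, where it passed DESeq2 (adjusted p = 0.017). Racgap1, a subunit of centralspindlin, had 7067, 7093 and 7575 in oil against 6720.0, 6101 and 4873 and passed there as well (adjusted p = 0.0149). Its partner Kif23 had 2212 to 2361 in oil and 1081, 1964 and 1479.6. Ect2, the exchange factor that activates RhoA at the cleavage furrow, had 2017, 2084 and 2158 in oil against 698, 1883 and 1222. Anln, encoding anillin, had 2149 to 2401 in oil and 1833, 1995 and 1411. Kif20a, a kinesin of the midzone, had 1712, 1624 and 1681 in oil against 1456, 1484 and 1154, and overlaps Cdc23, itself an APC/C gene, whose level was 84.7% of its own. With all libraries 3 of the 6 were lower at an unadjusted p under 0.05, and 6 without tamoxifen 1, where the median was -0.42. With the GC correction described below, 1 was lower at that p with all libraries, against 6.99% of all genes in either direction. The all-library median went from -0.40 to -0.28.

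The chromosome proteins diverged from each other. Mki67, the proliferation antigen Ki-67 present in all phases but G0, had 13538, 18788 and 16829 in oil and 15728, 16644 and 14874. All 3 tamoxifen-labelled values lay inside the oil range, with a log2 fold change of -0.05 ± 0.17, and it was the only member for which that held. Its oil libraries varied most of all members, with a coefficient of variation of 16.2% where the median member had 5.39%. Top2a, the topoisomerase that untangles sister chromatids, had 13010.1, 14077 and 15547 in oil against 10608, 13093 and 9863. Smc4, a subunit of both condensins, had 5512, 6374 and 6379.9 against 1948, 5689 and 4221, whereas Ncapd2, of condensin I, had 7729 to 8069 in oil and 12567, 7202 and 5858. Tamoxifen 3 was low for these 3 genes and tamoxifen 1 pointed down for 2 of them and up for the other.

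Levels across genes were compared per kilobase of merged exons. The oil mean per kilobase was highest for Cks2 at 5785, followed by Cdc20 at 2620 and Ccnb2 at 2257, and lowest for Cdc25c at 95.8. The spread within groups was unequal: the coefficient of variation over 3 libraries had a median of 5.39% in oil and 29.3% in the tamoxifen-labelled libraries (8.08% and 31.3% over all tested genes), and the SD was larger in the latter for 48 of 49 members, the exception being Mki67 (87.0% of all tested genes had the larger SD there).

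The scatter in tamoxifen 1 followed base composition in part. The GC content of the members' GENCODE vM21 transcripts ran from 40.1% to 56.1%. Across the 49 members, deviation in tamoxifen 1 had a Spearman correlation with GC of 0.69, given as a description since all points share 1 library, and it was 0.71 across the 10807 protein-coding genes tested. The same value over the members was 0.04 in tamoxifen 2 and 0.30 in tamoxifen 3. Of the 16 members with the lowest GC, 15 lay below every oil library in tamoxifen 1 and 0 above, with a median deviation of -1.26. Of the 16 with the highest GC, 2 lay below and 14 above, with a median of 0.48. The genes that stood above oil in tamoxifen 1, such as Cdc20 (55.6% GC), Espl1 (56.1%), Foxm1 (54.6%) and Cdca8 (52.9%), were of the last kind, and Mad2l1 (40.1%), Smc4 and Ect2 (both 40.2%) of the first. Plk1 and Ube2c went against this order: at 56.0% and 55.5% GC they were at -1.50 and -0.55 in tamoxifen 1. In tamoxifen 3 the same 16 low-GC and 16 high-GC members had medians of -0.53 and -0.48.

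**Figure D4:**
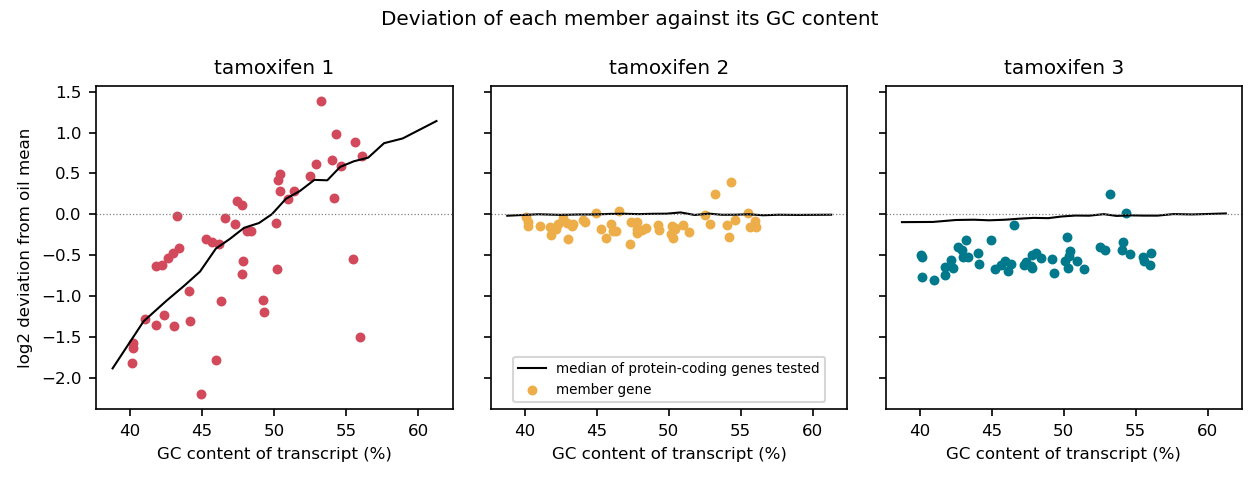
Log2 deviation from the oil mean (vertical axis) against the GC content of the transcript in percent (horizontal axis), 1 panel per tamoxifen-labelled library, with a point per member and a line for the median of all protein-coding genes tested, binned by GC. In tamoxifen 1 the members climb with GC along the line, Plk1 at -1.50 being an exception, while in tamoxifen 3 they lie below a nearly flat line across the GC range (median -0.53), except Gtse1 and Psrc1.

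A loess correction for GC was fitted for each library over the protein-coding genes tested, to differences from the median of the 6 libraries. After it, the members' median deviation was 0.11 in tamoxifen 1 (SD 0.62), -0.17 in tamoxifen 2 and -0.55 in tamoxifen 3. The sign of the median in tamoxifen 1 therefore changed with the correction, while those of the other 2 libraries kept theirs. With the correction the median log2 fold change was -0.23 with all libraries, -0.36 without tamoxifen 1 and -0.05 without tamoxifen 3. Plk1 went from -1.50 to -2.10 in tamoxifen 1 with the correction, and Ube2c from -0.55 to -1.09.

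Other genes of cell division were read from 9 lists beside the members. The shares of all tested genes at an unadjusted p under 0.05, against which the counts of each list stand, were 1.24% lower and 3.23% higher with all libraries, and 6.06% lower and 6.04% higher without tamoxifen 1. Over 18 further condensin and cohesin genes, 15 were negative with all libraries (median -0.43) and 0 passed an unadjusted p of 0.05 in either direction. Without tamoxifen 1 the median was -0.14 and 3 were lower, among them Ncapg, of condensin I (1929, 1899.6 and 1960.1 in oil against 624, 1721 and 1186), and Rad21, the cohesin ring subunit (17898, 18507 and 18874 against 9155, 17084 and 13162). Of 29 further centromere and kinetochore genes, 21 were negative (median -0.44) and 1 was lower at that p, Cenpl (1134, 1010.1 and 1036 against 717, 895 and 816), and without tamoxifen 1 the median was -0.21 with 6 lower. The 28 spindle motor, pole and cytokinesis genes had medians of -0.18 and -0.20, with 2 lower, Aspm and Kif18a, and 10 without tamoxifen 1. Their median was -0.035 without tamoxifen 3, -0.040 with GC correction, and 0.087 with GC correction and without tamoxifen 3. The checkpoint and APC/C list (22 genes) had -0.19 and -0.14, with 0 and 5 lower. Mitotic entry kinases and phosphatases (15 genes) had -0.15 and -0.16, with 0 and 5 lower. None of the genes in these 5 lists was higher at an unadjusted p under 0.05 by limma with all libraries or without tamoxifen 1, and none passed the adjusted threshold there. With library weights, genes lower at an adjusted limma p under 0.05 numbered 3 of the condensin and cohesin list, 5 of the centromere and kinetochore list, 8 of the spindle list, 1 of the checkpoint and APC/C list and 3 of the mitotic entry list, against 2.54% of all genes. DESeq2 without tamoxifen 1 called 2 genes of the spindle list lower and 0 of the other 4 lists, against 0.41% of all genes.

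Genes of other phases had medians nearer to 0, a difference from the members that was not tested. The 50 tested genes of DNA replication and S phase had a median of -0.07 with all libraries, with an unadjusted p under 0.05 for 0 genes in each direction, and of -0.08 without tamoxifen 1, with 0 lower and 1 higher, Ccne1, the cyclin of S-phase entry (346, 346 and 412 in oil against 630.1, 452 and 445). In tamoxifen 3, 24 of these 50 lay below every oil library, a share near that of all genes (37.9%, or 44.0% within the members' range of mean level). Their median deviation there was -0.19, where the members stood at -0.53. In oil 1, 2 and 3 the S phase medians were -0.18, -0.02 and 0.20, against -0.04, -0.01 and 0.05 for the members. The S phase list thus varied more between the oil libraries. The 19 regulators of the DREAM, MuvB and E2F families had a median of 0.00 in both fits, with 0 lower with all libraries and 2 lower without tamoxifen 1, against 6.06% of all genes. The 6 G1 cyclins and kinases had medians of 0.09 and 0.02, with 1 higher without tamoxifen 1, against 6.04%. Counts this small are near those shares. With library weights, 10 of the 50 S phase genes were lower and 1 higher at an unadjusted limma p under 0.05. Of all genes, 23.4% reached that p in either direction. At an adjusted p under 0.05, 1 G1 gene was higher with library weights and 1 by DESeq2 without tamoxifen 1. The shares of all genes in either direction were 6.36% and 1.85%. In those fits 0 genes of the S phase and DREAM lists passed.

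CDK inhibitors and other cell cycle brakes had a positive median of 0.21 over 19 genes, where an unadjusted p under 0.05 was reached by 4 higher genes, against 3.23% of all genes, and 0 lower ones, against 1.24%. Without tamoxifen 1 the median was 0.27, with 6 higher, against 6.04%, and 1 lower, against 6.06%. With library weights, 5 were higher and 1 lower at an adjusted limma p under 0.05, against 6.36% of all genes in either direction. DESeq2 without tamoxifen 1 called 2 higher and 0 lower, against 1.85% in either direction. Cdkn1a, which encodes p21, the p53-induced CDK inhibitor through which the DREAM complex forms, had 603, 487 and 614 in oil and 2796, 1754 and 1898 in tamoxifen 1, 2 and 3. Every tamoxifen-labelled library was above every oil library, with a log2 fold change of 1.89 ± 0.22 (limma adjusted p = 0.266). It rose without tamoxifen 1, by 1.69 ± 0.12 (limma adjusted p = 0.00118). Gadd45a, a stress-induced gene, had 88.9, 105 and 99.4 against 175, 136 and 202, and Mdm2, the ubiquitin ligase of p53, had 1124, 1164 and 1001 against 1500.4, 1407 and 1383. Neither passed the adjusted test in either fit.

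**Figure D5:**
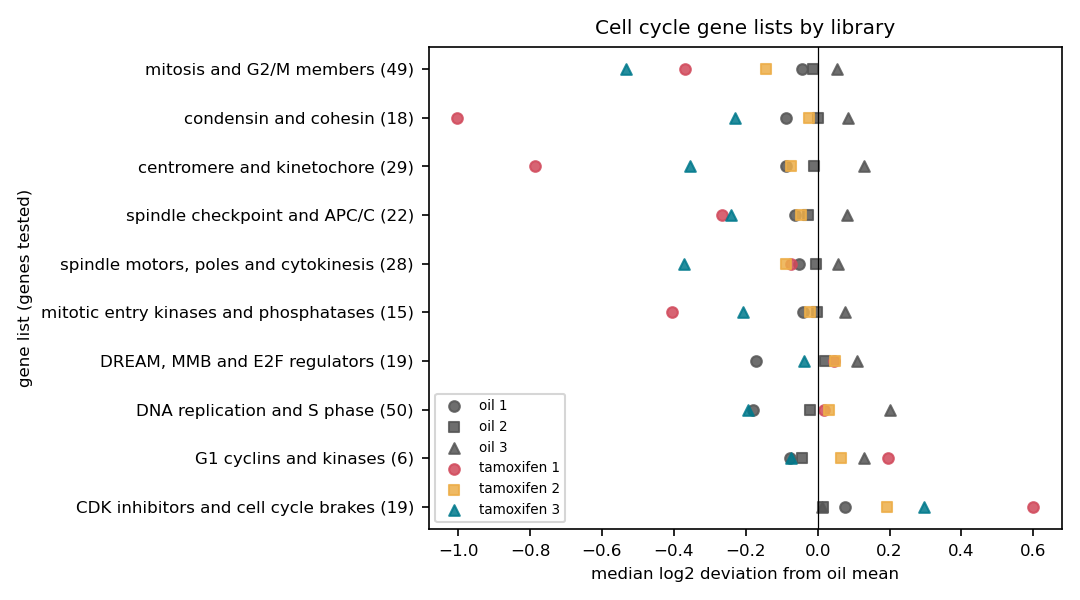
Median log2 deviation from the oil mean (horizontal axis) of the members and of 9 other cell cycle lists (rows, genes tested in parentheses) in each library, oil in grey. In tamoxifen 3 the members are farthest left at -0.53, the S phase list stands at -0.19 and the CDK inhibitors at 0.30.

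Markers of other cell types were summed in each library. The sums of the erythroid, mast cell, T cell and megakaryocyte lists overlapped between the groups. Those of the macrophage, NK cell and neutrophil lists were higher in every tamoxifen-labelled library than in every oil library. The 9 erythroid markers found in the table summed to between 51117 and 71271 in oil and to 88914, 56312 and 80269 in tamoxifen 1, 2 and 3, so that tamoxifen 1 and tamoxifen 3 were above the oil range and tamoxifen 2 was within it. The 10 mast cell and basophil markers summed to 59299.8 to 65517 in oil and to 50991, 66615 and 84437 in tamoxifen 1, 2 and 3. Tamoxifen 1 was thus below the oil range, and tamoxifen 2 and tamoxifen 3 were above it. With all libraries 0 of the 10 were higher at a limma adjusted p under 0.05, and without tamoxifen 1 there were 2 (smallest adjusted p = 0.00183), against 0.333% of all genes in either direction. With library weights there were 6, against 6.36% of all genes in either direction. Sums of the 11 macrophage markers were 133 to 322 in oil and 361 to 479, those of 7 NK cell markers 58.9 to 159 and 193 to 661, with 6 of the 7 at 0 in every library, and those of 10 neutrophil markers 16.2 to 27.0 and 40.9 to 80.5, with Ly6g at 0. All 9 macrophage markers tested had a positive log2 fold change with all libraries (median 1.17). Of these, 5 were higher at an unadjusted limma p under 0.05, against 3.23% of all genes, and 6 without tamoxifen 1, against 6.04%. In both fits 0 passed the adjusted threshold. Only 1 of the 10 neutrophil markers was tested, and it went against the sum of its list. Its log2 fold change was -1.47 with all libraries and -0.30 without tamoxifen 1 (limma adjusted p = 0.666 and 0.843). Its deviation from the oil mean was -3.82, -0.64 and 0.05 in tamoxifen 1, 2 and 3. The 9 T cell markers summed to 40.5 to 68.7 and 33.6 to 104, with Cd3e, Cd8a, Cd8b1 and Cd28 at 0, and the 7 megakaryocyte markers to 1213 to 1314 and 1224 to 1597. Their part in the members' differences was not tested.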

How the data were processed

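RNA of sorted AE9a leukemia cells was sequenced by the study as paired-end reads, and the authors processed it with STAR and DESeq2 on mm10, per the submitters' processing notes. The annotation, the strand setting and the filters are not given in the sources used here. The values the authors deposited are a normalized signal: gene counts that had been scaled by a size factor for each library. Within a tolerance of 0.02, 100% of the values were whole multiples of the value of 1 read, and dividing by it gave the reads. Of 55450 rows, 1832 had no gene name (0.0400% to 0.0614% of reads) and were left out, and 52048 of the 53618 named rows matched a GENCODE vM21 (GRCm38) symbol, which gave coordinates, lengths and the GC content of the longest transcript.

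Deposited values + 1 were put on the log2 scale, where folds of low genes are understated, and tested with limma 3.58.1 (lmFit, eBayes with trend, R 4.3.3) on 12298 named genes, those that reached 10 in no fewer than 3 libraries. The two-sided p-values were adjusted by Benjamini-Hochberg over all genes tested, with a threshold of 0.05. The scripts were tested on simulated data. EdgeR 4.0.16, DESeq2 1.42.0 and voom were run on the recovered reads, and scaling, filter, pseudocount, GC content (loess span 0.3), library weights, a replicate block and left-out libraries were varied. Groups and replicate numbers came from the labels. Intervals are not given, and the depth of 19164795 to 23770537 reads per library does not limit genes at these levels, while 3 mice per group limit the precision. The libraries carried no molecular identifiers, so reads need not be separate molecules.

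The members, their roles and the other lists were chosen with earlier results of these data known. Per-library values are given by a rule for 28 members chosen for their role, for the 3 highest and 3 lowest fold changes with all libraries, without tamoxifen 1 and without tamoxifen 3, and for members past the threshold; those of other members are given beside them. Of each other list, up to 3 genes with the smallest unadjusted p could be named. 1 of the marker lists is not reported here.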

Additional observations from a re-analysis of the deposited data

How the results depend on the processing

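With all 6 libraries 0 members passed the adjusted threshold, 12 passed an unadjusted p under 0.05, 25 did not overlap between groups, the median log2 fold change was -0.35 and 6 of the 9 other lists had a negative median. The median stayed negative in each of the 20 planned and 6 added settings. The first count became 35 with library weights, and 6 by DESeq2 without tamoxifen 1. The second, against 4.47% of all genes, became 47 with library weights (23.4% of all genes). Without tamoxifen 1 it became 41 by limma with GC correction (13.2%), 41 by DESeq2 (9.68%) and 40 by edgeR (12.0%), and without tamoxifen 3 it became 5 with GC correction (6.07%), 2 by edgeR (4.66%) and 2 by DESeq2 (6.58%). Over the fits that left out 1 library it ranged from 0 (any oil library) to 41 (tamoxifen 1), and the number without overlap from 26 to 38, against 23.9% to 37.0% of all genes. That number was 16 with GC correction (18.5%) and 39 with tamoxifen 1 and tamoxifen 3 both left out (49.5%), where the median was -0.14. With GC correction and without tamoxifen 3 the median was -0.052 and 3 lists were negative. The settings that pair GC correction, edgeR or DESeq2 with a left-out library were chosen after seeing the data. Of 33 members followed singly, 13 changed sign somewhere. Members outside these 33 were not counted, but some changed sign as well. Cdca8 went from 0.019 with all libraries to -0.28 without tamoxifen 1. Nek2 and Cdca3 went from -0.11 and -0.17 to 0.055 and 0.026 without tamoxifen 3. Ckap2 went from -0.33 to 0.024 with GC correction. With GC correction, alone or with the replicate block, log2 fold changes were -0.17 for Foxm1, -0.10 for Aurkb, -0.16 for Cdc20, -0.20 for Espl1, 0.16 for Cenpf and 0.091 for Mki67. With library weights they were -0.36 for Foxm1, -0.28 for Aurkb, -0.46 for Cdc20 and -0.41 for Espl1. With tamoxifen 1 and tamoxifen 3 both left out they were 0.021 for Cks2, 0.010 for Ube2c, 0.036 for Mki67, -0.073 for Foxm1, -0.0074 for Aurkb, -0.15 for Cdc20 and -0.15 for Espl1. By edgeR, Bub1b was at 0.0091. Between the fit without tamoxifen 1 and the fit without tamoxifen 3, the extremes over the left-out libraries, the value went from -0.28 to 0.26 for Foxm1, -0.21 to 0.23 for Aurkb, -0.32 to 0.28 for Espl1, -0.36 to 0.37 for Cdc20, -0.45 to 0.036 for Aurka, -0.29 to 0.011 for Tpx2, -0.34 to 0.036 for Birc5, -0.34 to 0.16 for Bub1b and -0.48 to 0.066 for Kif2c. Mki67 went from -0.18 without oil 1 to 0.060 without oil 2. The cause was not tested.

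The labels number the replicates 1 to 3 in both groups without stating a pairing, and the deviations of same-numbered libraries correlated at -0.02, 0.06 and -0.15, so the numbers were not taken as pairs. With the replicate block 7 members were at an unadjusted p under 0.05 in place of 12, against 3.46% of all genes, and 0 passed the adjusted threshold. With the block and GC correction 8 were at that unadjusted p, against 5.53% of all genes.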
